A study of Mus musculus with 8 samples.

Results

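Cytosolic ribosomal protein genes encode the protein parts of the ribosome that works in the cytosol. They were taken as the protein-coding genes whose symbol is Rpl or Rps followed by a number, with or without a closing a, x, y or l, together with Rplp0, Rplp1, Rplp2 and Rpsa. The rule found 80 genes among the 49671 of the count table, of which 49 belong to the large subunit and 31 to the small subunit. It used names only and no measured value. A further 3 matching symbols, Rps4l among them, are annotated as pseudogenes and were left out. Ribosomal proteins whose symbols fall outside the rule, such as Fau, Rps3a1, Rack1, Rpl22l1, Rpl7l1, Rpl36al and Rps27rt, were followed as a separate list of 8 genes.

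The samples were 8 mouse tumors called CCS in their titles, numbered 1, 2L, 2R, 3, 4a, 4b, 5 and 6. All shared the genotype HprtCre; Ewsr1-loxP; Atf1-loxP, in which Cre recombinase, placed at the Hprt gene, acts on loxP sites in Ewsr1 and Atf1 so that the genes exchange parts. The Hprt gene is active in nearly all cells, and the fusion of EWSR1 and ATF1 is that of human clear cell sarcoma. The tumors received no drug and were frozen when the primary tumor made the animal ill, and total RNA was sequenced after removal of ribosomal RNA. No tumor-free tissue or other genotype was analysed here, so every comparison below is among tumors, and the labels do not say which tumors came from the same animal or what L, R, a and b stand for.

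A ribosome reads messenger RNA on its small subunit and joins amino acids on its large subunit, and each subunit is assembled in the nucleolus from ribosomal RNA and a nearly fixed set of proteins. The messenger RNAs for these proteins are short and abundant, and most begin with a run of pyrimidines, the 5′ terminal oligopyrimidine tract, through which mTOR signalling controls their translation. A few proteins have paralogs that are used in particular tissues, such as Rpl3l in heart and skeletal muscle and Rpl10l and Rpl39l in male germ cells.

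The libraries held 4817902 to 19682149 counts. Of 4 tumor markers, Ewsr1, Atf1 and Mitf were detected in every library, and the sums of the 4 were 107.1 to 234.9 CPM. The fourth, Sox10, was near 0 throughout, with 0.235 CPM in 2L, 0.156 CPM in 2R and 0 CPM elsewhere. The sums therefore rest on the other 3. Counts per gene do not separate a fused Ewsr1 or Atf1 from the unfused gene, so the sums do not measure tumor content. Library 3 stood apart. Its counts from nuclear protein-coding genes numbered 1135911, or 23.6% of its total, against 57.4% to 93.9% in the other 7, and its TMM scaling factor was 0.394, against 0.830 to 1.36 elsewhere. The protein-coding mitochondrial genes took 18.7% of its counts, and Gm26917 and Gm42418 took 27.6%. Of all 11505 genes that passed the filter on low counts, 29.6% had their highest level there and 31.2% their lowest. Results that rest on library 3 are therefore given with and without it, and what its makeup contributes to them was not tested.

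The sequences behind these counts are shown first for a pair of paralogs, because the counting can only separate members that differ in sequence. The coding sequence of Rpl39, a small protein of the exit tunnel of the large subunit (X chromosome, GRCm38 chrX:37082520-37085402, minus strand), is followed by that of Rpl39l (GRCm38 chr16:10170226-10174911, plus strand). Capitals in Rpl39l mark the bases that differ from Rpl39.
Rpl39: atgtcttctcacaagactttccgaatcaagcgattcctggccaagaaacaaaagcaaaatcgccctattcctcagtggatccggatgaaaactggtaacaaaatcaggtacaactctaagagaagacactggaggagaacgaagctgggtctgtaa
Rpl39l: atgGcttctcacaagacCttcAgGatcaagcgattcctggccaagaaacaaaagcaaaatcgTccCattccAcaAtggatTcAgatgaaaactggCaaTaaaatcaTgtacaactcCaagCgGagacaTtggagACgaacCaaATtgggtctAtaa
Both sequences are 156 bases long, differ at 23 bases and are 85.3% identical, and 16 of the differences lie at the last base of a codon. Their longest identical stretch is 38 bases, so a read of 50 bases from the coding sequence of either gene contains at least 1 difference. Rps27 and Rps27rt are the opposite case: their coding sequences of 255 bases are identical, and Rps27rt was given 3 counts over all 8 libraries.

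The starts of the genes were read from RefSeq windows of the build GRCm38.p6, which matched 60 of the 80 members. In 13 of the 60 (21.7%), the annotated first base is a C followed by at least 4 more pyrimidines (C or T), against 3.01% of the 27025 genes of the table that have a window. The letters CGGAAG, the core recognised by transcription factors of the ETS family, occur on either strand within the window of 300 bases around the start in 41 of the 60 (68.3%), against 18.8% of the 27025 genes. These are matches of letters and not measured binding or measured transcript starts. The windows below run from 15 bases before the annotated start to 15 bases from it, and capitals mark the run of pyrimidines at the start of 4 members of both subunits. Rpl15 lies at GRCm38.p6 chr14:18270972-18271001 on the minus strand, Rplp2 at chr7:141447636-141447665 on the plus strand, Rps10 at chr17:27635230-27635259 on the minus strand and Rps6 at chr4:86857353-86857382 on the minus strand.
Rpl15: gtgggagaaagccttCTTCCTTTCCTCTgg
Rplp2: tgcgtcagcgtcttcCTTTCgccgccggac
Rps10: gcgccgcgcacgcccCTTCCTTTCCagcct
Rps6: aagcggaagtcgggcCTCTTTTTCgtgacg
The tract in Rpl15 is 13 bases long and that in Rplp2 is 5 bases long. The letters cggaag can also be read just before the tract of Rps6.

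As a group the ribosomal protein genes stood above the typical coding gene. After the filter, 65 of the 80 members remained, 41 of the large and 24 of the small subunit. Their mean level, in CPM (counts scaled to a common library size with TMM factors) per kilobase of annotated exon had a median of 17.0, against 5.68 over the nuclear protein-coding genes that passed. Of the 65, 52 lay above that median of coding genes and 29 were in the top 10% of coding genes. The members themselves were far from equal, ranging from 1.19 to 585 CPM per kb, although the ribosome holds most of them in equal numbers.

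The genes with the highest levels per kilobase were Rplp1, Rpl8, Rpl4, Rps15 and Rpl39. Rplp1, which forms with Rplp0 and Rplp2 the stalk that recruits elongation factors, averaged 585 CPM per kb, and its CPM was 194 at the lowest, 299 at the median and 402 at the highest over the 8 tumors. Rpl8, a protein close to the peptidyl transferase centre, averaged 276 CPM per kb, with 251, 386 and 490.0 CPM at the lowest, median and highest. Rpl4, which lines the exit tunnel, averaged 272 CPM per kb and had the most counts of all members, with 379, 482 and 877 CPM. The lowest tumor therefore still had more than 190 CPM of each of these 3 genes. Rps15, in the head of the small subunit, averaged 222 CPM per kb, and Rpl39 averaged 175 CPM per kb.

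The stalk showed how uneven partners can be on this scale. Rplp0, the anchor of the stalk, averaged 160.0 CPM per kb, while Rplp2, which pairs with Rplp1 in the protein, averaged 12.6 CPM per kb. Its CPM was 10.8 at the lowest, 27.6 at the median and 38.6 at the highest. Per kilobase of the longest annotated transcript instead, Rplp1 averaged 585 CPM, Rplp0 195 CPM and Rplp2 27.2 CPM. The size of the gap thus depends on the length used. At the low end of the members that passed were, among others, Rpl21 at 1.19, Rps13 at 1.23, Rps7 at 1.24 and Rpl17 at 2.20 CPM per kb. These genes encode core proteins of both subunits, and their levels lay below the median of coding genes.

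A total of 15 members did not pass, among them genes of core proteins. Rps6, the target of the S6 kinases, had 0.894, 1.47 and 6.92 CPM at the lowest, median and highest. Rps27a, made as a fusion with ubiquitin, had 1.09, 3.45 and 6.92 CPM. Rpl24 had 42 counts and Rps29 had 32 counts over all 8 libraries. The others were Rpl23a, Rpl28, Rpl36, Rpl36a, Rps12, Rps16, Rps23 and Rps27, at means of 0.965 to 2.85 CPM, and the paralogs Rpl3l, Rpl10l and Rpl39l. Rpl10l had no count in any library.

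Many members share sequence with other annotated genes, and this went with their levels. The median member had 64.2% of the 50-base words of its coding transcripts in no other annotated gene, against 99.9% for the coding genes that passed, and the range was 4.91% to 100%. Fewer than 50% of the words were unique in 26 of the 80 members, against 2.34% of coding genes. The share was under 50% in 8 of the 15 members that did not pass and in 18 of the 65 that did. Across the 80 members, the level per kilobase and the unique share had a Spearman correlation of 0.41, a description over genes measured in the same 8 libraries. Rpl5, which together with Rpl11 and the 5S RNA binds and inhibits Mdm2, had 14.6% unique words and 6.28 CPM per kb, and Rpl35, an exit tunnel protein, had 4.91% and 7.22 CPM per kb. Rpl8 had 93.7% and stood among the highest. Rplp1 is the exception at the top, with 40.0% unique words. At the low end, Rpl21 had 80.3%, Rps13 66.5%, Rpl17 55.3% and Rps7 50.5%, so none of these genes of low level had a share under 50%.

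**Figure D1:**
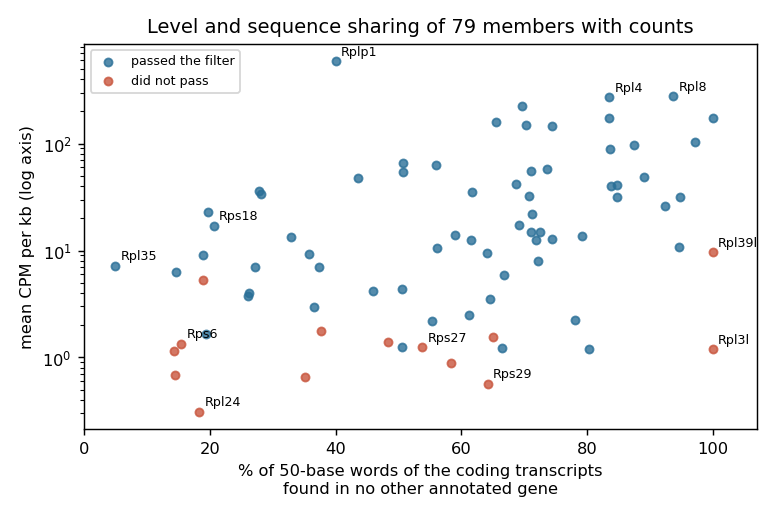
Mean CPM per kb (log axis) against the percent of 50-base words of the coding transcripts that no other annotated gene holds, for the 79 members with counts; each point is a gene. Members that did not pass the filter lie mostly at the bottom, 8 of them under 50% and the others above. Rpl4 and Rpl8 lie at the upper right.

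How the authors' counting treated reads that match several genes is not given in the sources used here, so the levels of Rpl24, Rpl35, Rps6 and the other members with few unique words are uncertain. The annotation names 277 pseudogenes after 58 of the members, up to 23 after Rps12. Their counts amounted to 1.14% to 1.71% of the member counts of a library.

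The members are scattered over the genome and share another feature, since they often host small nucleolar RNAs in their introns. They lie on 19 chromosomes, with 14 on chromosome 7. In 29 of the 80 (36.3%) the annotation places at least 1 small nucleolar RNA gene inside the gene, against 1.18% of all nuclear protein-coding genes, and the total is 56. Rpl4 holds 5, and Rpl13a holds 4. Because the handling of strand in the counting is not given in the sources used here, reads of overlapping genes on the other strand cannot be told apart from those of the members.

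The share of nuclear protein-coding counts taken by the 80 members differed between tumors by more than the counting error. The share was 1.19% for library 3, 0.990% for tumor 5, 0.979% for 2R, 0.974% for 4a, 0.945% for tumor 1, 0.723% for tumor 6, 0.674% for 4b and 0.592% for 2L, with a mean of 0.884% ± 0.201 (SD, n = 8). The lowest was 2L, followed by 4b and 6, and the highest was library 3. The exact binomial 95% intervals, which cover counting error only, were narrow: 0.589% to 0.596% in 2L and 1.17% to 1.21% in 3. The small subunit contributed 42.7% to 46.7% of the member counts in every tumor, so both subunits shared in the differences. In bulk tissue, fewer cells of a type and less RNA per cell cannot be told apart.

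**Figure D2:**
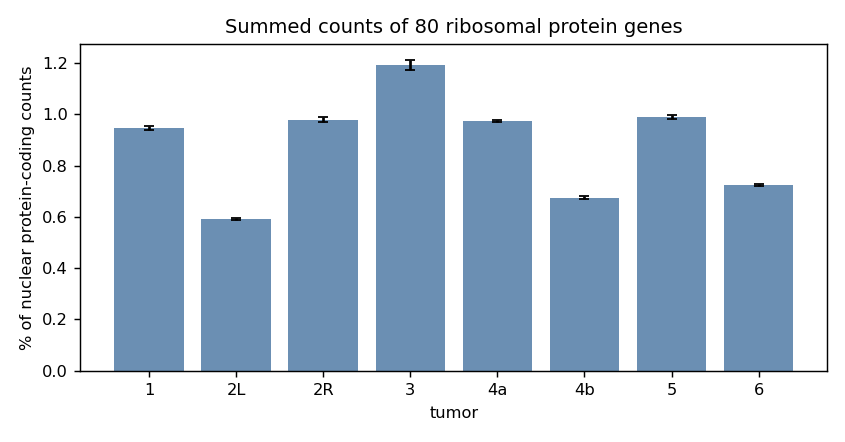
Summed counts of the 80 ribosomal protein genes as a percent of all nuclear protein-coding counts in each tumor; error bars are exact binomial 95% intervals (counting error only). Tumors 2L (0.592%), 4b (0.674%) and 6 (0.723%) lie below the other 5.

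Gene by gene the same tumors were low. With every gene centred on its own mean log2 CPM, the median of the 65 members that passed was 0.37 for library 3, 0.22 for 2R, 0.16 for 4a, 0.08 for tumor 5, -0.04 for tumor 1, -0.18 for tumor 6, -0.34 for 4b and -0.44 for 2L, while the median over all genes lay between -0.03 and 0.02. Of the 65, 26 were at their lowest in 2L (40.0%, against 12.2% of all genes) and 22 in 4b (33.8%, against 9.39%). Highest levels were found in library 3 for 28 members (43.1%, against 29.6% of all genes), in 2R for 13 (20%, against 8.42%), in 5 for 12 (18.5%, against 8.23%) and in 4a for 10 (15.4%, against 7.67%). Tumors 1 and 4b held the highest level of no member, against 8.19% and 8.90% of all genes.

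These positions are relative to the other genes, because the scaling by TMM assumes that most genes do not change. With library totals as the only scaling, 49 of the 65 members were lowest in library 3 and 33 were highest in 4a, while 75.2% of all genes were also lowest in library 3. A scaling factor shifts all genes of a library alike, so the distance of the members' median from that of all genes is the same under every such factor: it was -0.45 in 2L, -0.35 in 4b, -0.17 in 6 and 0.40 in 3 on the log2 scale.

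**Figure D3:**
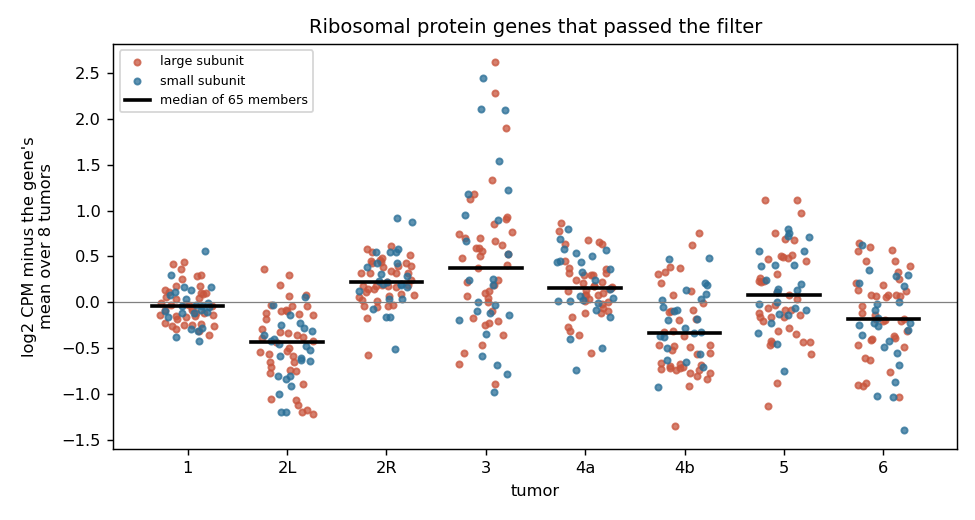
Log2 CPM minus the gene's own mean over the 8 tumors, for the 65 ribosomal protein genes that passed the filter; points are genes (large subunit red, small subunit blue) and black bars are medians. The medians are lowest in 2L (-0.44) and 4b (-0.34), and the points of library 3 are the most widely spread; with library totals as the only scaling, library 3 moves to the bottom.

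Over the 8 tumors, the SD of log2 CPM had a median of 0.46 over the members and 0.51 over all genes tested, and 35 of the 65 members lay below the median of all genes. Without library 3 the order turned, with medians of 0.44 over the members and 0.41 over all genes. The steadiest members were Rps20, Rpl22, Rpl8 and Rpl19. Rps20, a protein of the small subunit head, had 81.7, 102 and 136 CPM at the lowest, median and highest, with an SD of log2 CPM of 0.23. Rpl22, an RNA-binding protein of the large subunit, had 61.6, 92.4 and 118 CPM (SD 0.29). Rpl19 was as steady at a low level, with 2.64, 3.81 and 4.82 CPM (SD 0.31). Among the most variable were Rpl10a, Rpl12, Rps2, Rpsa and Rps19, with SDs of 1.16, 1.07, 1.05, 1.04 and 0.83, and all 5 were highest in library 3.

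Tumors 2L and 2R carry the same title number, and the ribosomal protein genes were lower in 2L than in 2R almost throughout. Ratios were taken for genes with a mean of 5 CPM or more over the pair. Of the 56 members that met this, 55 were lower and 1 was higher in 2L, while 49.2% of the 10542 genes examined were higher. The median log2 ratio of 2L over 2R was -0.67 over the members and -0.01 over all genes; with library totals as the only scaling the members' median turned to 0.059 as that of all genes moved to 0.70. At least 2-fold lower levels were found for 15 members (26.8%), against 7.19% of all genes, and at least 2-fold higher levels for none, against 9.43%. With 1 library on each side, these ratios have no replicate check.

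Rpl34, a large subunit protein, had 54.0 CPM in 2L and 134 CPM in 2R. Rpl39 had 109 CPM in 2L and 261 CPM in 2R. Rpl10, which in yeast joins the large subunit late in its assembly, had 3.68 CPM in 2L and 8.88 CPM in 2R. Their log2 ratios of -1.31, -1.26 and -1.24 were the lowest of the members. Other members at least 2-fold lower in 2L were Rps19 (-1.22), Rps26 (-1.19), Rpl11 (-1.18), Rpl12 (-1.18), Rps14 (-1.17), Rpl10a (-1.15), Rps24 (-1.09), Rpl41 (-1.08), Rps15 (-1.06), Rps28 (-1.06), Rpl13a (-1.05) and Rpl13 (-1.03). At the other end, Rpl8 had 387 CPM in 2L and 384 CPM in 2R (0.01), Rpl30 18.6 and 19.8 CPM (-0.09), and Rplp2 29.5 and 32.2 CPM (-0.13). Rpl8 was the only member above 0 in this pair.

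Library 2L also held far more muscle RNA than 2R. The summed level of 6 skeletal muscle markers (Ttn, Neb, Myh4, Acta1, Ckm and Mylpf, all detected in both libraries) was 19924 CPM in 2L and 110 CPM in 2R. The 4 fibroblast markers summed to 3393 CPM in 2L and 18128 CPM in 2R, and the 4 B and plasma cell markers to 100 CPM in 2L and 660.2 CPM in 2R. The 4 keratinocyte markers summed to 853 CPM in 2L and 72.2 CPM in 2R, mostly from Dsg3 and Dsp. Of the keratins among them, Krt14 had 45.6 CPM in 2L and 0.779 CPM in 2R, and Krt5 had 0.392 CPM in 2L and 0 CPM in 2R. The makeup of the RNA differed as well: mitochondrial ribosomal RNA took 0.877% of the counts in 2L and 24.7% in 2R, Gm26917 and Gm42418 0.920% in 2L and 7.02% in 2R, and nuclear protein-coding genes 93.9% in 2L and 57.4% in 2R. Tumors 4b and 6, the next lowest in ribosomal protein levels, had 13.8 and 16.8 CPM of the muscle markers. What cell makeup and RNA makeup contribute to the ribosomal protein levels of 2L, 4b and 6 was not tested.

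Tumors 4a and 4b, the other pair with a shared number, also differed, and here the members were on the whole higher in 4a. Of 57 members, 45 were higher and 12 lower in 4a, against 48.4% of 10360 genes higher. The median log2 ratio of 4a over 4b was 0.62 over the members and -0.01 over all genes, and 0.78 and 0.14 with library totals as the only scaling. At least 2-fold higher levels were found for 16 members (28.1%), against 2.27% of all genes, and at least 2-fold lower levels for none, against 1.67%.

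Rplp2 of the stalk had 38.6 CPM in 4a and 12.7 CPM in 4b. Rpl35 had 13.2 CPM in 4a and 4.99 CPM in 4b. Their log2 ratios were 1.59 and 1.38. Others at least 2-fold higher in 4a were Rpl41 (1.33), Rpl35a (1.32), Rps3 (1.10), Rpl23 (1.07), Rps15a (1.07), Rps26 (1.07), Rpl6 (1.05), Rps27l (1.05), Rpl32 (1.04), Rpl7 (1.03), Rpl13a (1.02) and Rplp0 (1.003). The lowest ratios belonged to Rps28 (-0.64), with 32.8 CPM in 4a and 51.2 CPM in 4b, to Rpsa (-0.64), with 10.02 and 15.6 CPM, and to Rpl39 (-0.62), with 252 and 388 CPM. Rps2, Rpl12, Rpl13, Rpl38, Rpl9, Rps19, Rpl11, Rpl10 and Rpl10a were lower in 4a by less. Rpl13a, Rpl41 and Rps26 were at least 2-fold apart in both pairs, lower in 2L than in 2R and higher in 4a than in 4b.

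Cell markers and RNA makeup differed between 4a and 4b too. The 6 macrophage markers summed to 1462 CPM in 4a and 832 CPM in 4b, the 4 fibroblast markers to 15564 CPM in 4a and 19769 CPM in 4b, and the 4 B and plasma cell markers to 35.1 CPM in 4a and 117 CPM in 4b. Mitochondrial ribosomal RNA took 2.90% of the counts in 4a and 8.27% in 4b, and nuclear protein-coding genes 87.4% in 4a and 76.8% in 4b. Their part in the higher ribosomal protein levels of 4a was not tested.

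Members were not alone in the second pair. Other protein-coding genes with a messenger RNA under 1500 bases had a median log2 ratio of 0.45 of 4a over 4b (1029 genes, 84.2% above 0), and mitochondrial ribosomal protein genes a median of 0.46, with 66 of 71 above 0. In the first pair, 2L over 2R, the median was -0.14 for short messenger RNAs (1049 genes, 38.3% above 0). It was 0.03 for mitochondrial ribosomal protein genes, with 37 of 71 above 0, and -0.67 for the members. Members with at least 50% unique words had medians of -0.67 for 2L over 2R (40 genes) and 0.68 for 4a over 4b (41 genes), and those under 50% had medians of -0.71 and 0.32 (16 genes each). The median distance from the gene's own mean log2 CPM was 0.24 over the 47 members with at least 50% and 0.59 over the 18 under 50% in library 3, and -0.47 and -0.19 in 4b. What transcript length contributes to the difference between 4a and 4b was not tested further.

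**Figure D4:**
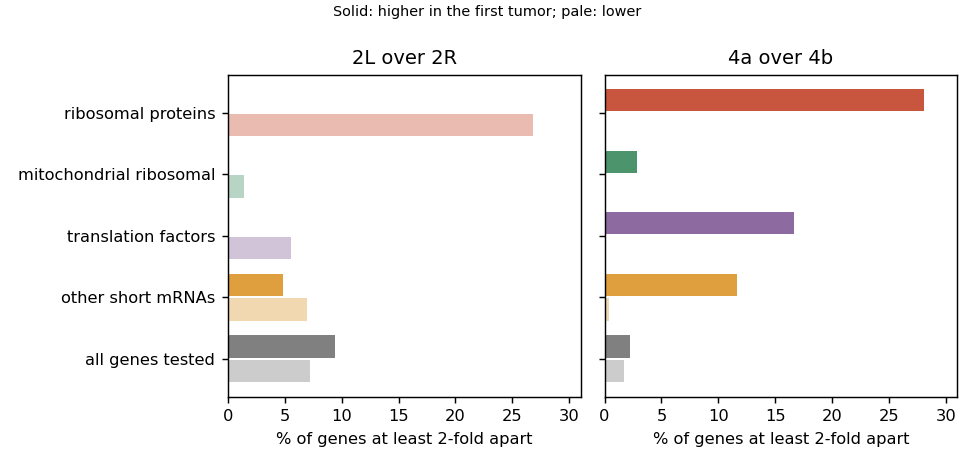
Percent of genes at least 2-fold higher (solid) or lower (pale) in 2L over 2R and in 4a over 4b, for ribosomal protein genes, mitochondrial ribosomal protein genes, translation factors, other coding genes with a messenger RNA under 1500 bases and all genes tested. Ribosomal protein genes were lower in 2L (26.8%) and higher in 4a (28.1%); with library totals as the only scaling, no member was 2-fold apart between 2L and 2R.

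Genes that work with the ribosome followed the members in part. The translation factors whose messenger RNAs also begin with a pyrimidine tract include the elongation factors Eef1a1 and Eef2. Their median log2 ratio of 2L over 2R was -0.29, with 15 of 18 lower. That of 4a over 4b was 0.38, with 13 of 18 higher (72.2%). Over all genes, 49.2% were higher in 2L and 48.4% were higher in 4a. Of other coding genes with a messenger RNA under 1500 bases, 38.3% were higher in 2L and 84.2% in 4a. Eef1a1 had 1242 CPM in 2L and 1624 CPM in 2R, and 1216 CPM in 4a and 572 CPM in 4b. Rack1, a small subunit protein outside the symbol rule that serves as a docking site for kinases, had 533 CPM in 2L and 693 CPM in 2R, and 659 CPM in 4a and 327 CPM in 4b. The 25 ribosome biogenesis genes examined, which act in the nucleolus, stayed near 0 in the first pair (median -0.01) and slightly below 0 in the second (-0.19), with none of them 2-fold apart in either pair.

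A test of differences among the 6 title numbers, with 2L and 2R and 4a and 4b as the only replicates, called no member. In the edgeR quasi-likelihood F-test with Benjamini-Hochberg adjustment over 11505 genes, 0 of 65 members passed an adjusted p of 0.05, against 0% of all genes, and the smallest adjusted p of a member was 0.103. An unadjusted p under 0.05 was reached by 6 members, against 24.5% of all genes. The DESeq2 likelihood ratio test called 5 members, Rps2, Rpl10a, Rpl12, Rpsa and Rps19, against 20.7% of all genes, a lower share than that of genes at large. The test has 2 residual degrees of freedom, and p-values measure only the spread within these pairs of libraries, which the labels do not describe as separate animals. With library totals as the only scaling edgeR called 7 members (33% of all genes), and with no filter on low counts 11 of 79 (20.6% of all genes). Leaving out 1 library of the first pair raised the edgeR count to 12 members without 2L (38.7% of all genes) and 17 without 2R (39.3%), and leaving out library 3 kept it at 0.

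All 5 genes that DESeq2 called were highest in library 3. Rps2, a protein at the entrance of the messenger RNA channel, had 341 CPM in library 3, and 72.7 CPM in 2R, 64.1 in tumor 1, 54.9 in 4b, 48.7 in 2L, 38.7 in tumor 6, 37.4 in 4a and 37.1 in tumor 5. Rpl10a, the protein of the mobile L1 stalk, had 70.8 CPM in library 3, and 11.2, 15.3, 9.97, 4.98, 6.71, 9.19 and 7.69 CPM in the other 7 in the same order. Rpl12, at the base of the stalk that binds elongation factors, had 57.5 CPM in library 3, and 11.4, 9.77, 14.4, 4.94, 5.65, 9.65 and 13.6 CPM in the others. For these 3 genes, library 3 stood 3.99-fold to 4.70-fold above the next tumor and the other 7 overlapped. Rpsa, also known as the laminin receptor precursor, had 61.3 CPM in library 3 and 5.32 to 18.7 CPM elsewhere. Rps19, the gene most often mutated in human Diamond-Blackfan anemia, had 476 CPM in library 3 and 71.5 to 227 CPM elsewhere.

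The DESeq2 adjusted p-values were 7.78e-09 for Rps2, 7.56e-07 for Rpl10a, 0.000201 for Rpl12, 0.000244 for Rpsa and 0.0220 for Rps19, and edgeR gave 0.103, 0.118, 0.151, 0.142 and 0.237 in the same order. Without library 3, DESeq2 called 0 members, against 9.75% of all genes, and its adjusted p-values of the 5 genes lay at 0.611 or higher, so the calls rest on that library. A share of the member counts does not depend on the scaling between libraries. By it, Rps2 made up 4.73% of the member counts in library 3 (95% interval 4.38% to 5.10%) and 0.576% to 1.25% elsewhere, and Rpl10a 0.981% (0.822% to 1.16%) and 0.116% to 0.279% elsewhere. With library totals as the only scaling, Rps2, Rpl10a, Rpl12 and Rpsa were still highest in library 3, by 1.91-fold, 1.67-fold, 1.31-fold and 1.29-fold over the next tumor, while Rps19 was highest in 4b.

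**Figure D5:**
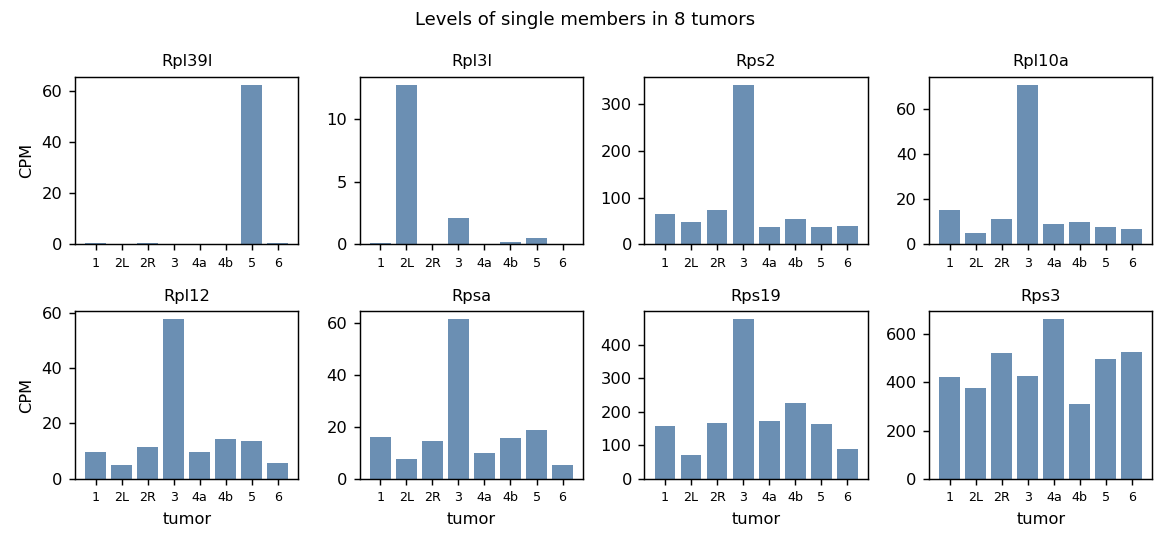
CPM (TMM scaling) of 8 members in each tumor; bars are single libraries. Rpl39l stands out in tumor 5 (62.3 CPM), Rpl3l in 2L (12.7 CPM), and Rps2, Rpl10a, Rpl12, Rpsa and Rps19 in library 3, where Rps3 does not; with library totals as the only scaling, Rps19 is highest in 4b.

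In library 3 as a whole, 15 of the 65 members stood at least 2-fold above the median of the other 7 tumors, against 18.6% of all genes, a share close to that background. Others beside these 5 were Rpl27, Rps15, Rpl13, Rpl7a, Rps7, Rpl18, Rpl9, Rps18 and Rpl27a. At least 2-fold below were 3 members, Rpl35a and Rps25 among them, against 20.1%. The nucleolar ribosome biogenesis list was also high there: 20 of its 26 genes had their highest level in library 3 under TMM scaling, against 29.6% of all genes, with a median of 0.86 on the log2 scale above their own means. This height is relative to the other genes. With library totals as the only scaling, the median over all genes in library 3 was -1.38 in place of -0.03, and the list is not given under that scaling. Myc, a transcription factor known to drive genes of ribosome production, had 770 CPM in library 3 and 6.95 to 70.0 CPM in the other 7. It was 1 of 9 growth regulators tested, of which 3 were highest in library 3, a share near that of all genes. Another of them, Eif4e, was lowest there, with 9.06 CPM against 21.3 to 37.7 CPM elsewhere. Muscle markers summed to 6537 CPM and macrophage markers to 221 CPM in library 3, the lowest macrophage sum of the 8. Their part in the high members of library 3 was not tested. Across the 65 members, the distance of library 3 from the other tumors had a Spearman correlation of 0.29 with the GC content of the messenger RNA, against 0.33 across coding genes, a description over genes that share that library.

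Of the paralogs, Rpl39l was abundant in a single tumor. It had 592 counts (62.3 CPM) in tumor 5 and 0 to 10 counts in each of the other 7 libraries. Taken with Rpl39, it made up 12.1% of the pair's counts in tumor 5 (exact binomial 95% interval 11.2% to 13.1%) and 0% to 0.286% elsewhere. All of its 50-base words are unique to it, and the sequences above show that reads of Rpl39 carry other letters. Its level in tumor 5 was at least 39.0-fold higher than in any other tumor, with libraries of fewer than 3 counts set to the limit of 3 counts (1.60 CPM in library 3). Rpl39 itself was also highest in tumor 5, at 451 CPM, against 109 to 388 CPM elsewhere. Red cell markers summed to 14487 CPM in tumor 5, against 16.2 to 420 CPM in the others, and keratinocyte markers to 685 CPM, against 1.22 to 853 CPM. The keratinocyte sum of tumor 5 was mostly Dsp (350 CPM) and Dsg3 (280 CPM). Of the keratins on the list, Krt14 had 55.1 CPM there, its highest level, and Krt5 had 0.105 CPM. The part of red cell and keratinocyte markers in the Rpl39l level was not tested.

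Rpl3l was found in 2L, the tumor with the most muscle RNA. It had 325 counts (12.7 CPM) in 2L and 0 to 5 counts elsewhere, and its 4 counts in library 3, the tumor with the second most muscle RNA, came to 2.13 CPM. Its share of the counts of Rpl3l and Rpl3 was 29.2% in 2L (26.6% to 32.0%), 3.08% in library 3 (0.845% to 7.69%) and at most 1.28% in the other 6. Rpl3, which it replaces in muscle, had 30.8 CPM in 2L, its lowest value, against 32.9 to 67.1 CPM in the other tumors. A lowest value in 2L is not particular to Rpl3, since 26 of the 65 members that passed the filter were lowest there. The part of muscle RNA in the Rpl3l level was not tested beyond these values.

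The other paralogs were not specific to a tumor. Rps27l, a paralog of Rps27 that p53 induces in human cells, took 92.3% to 98.0% of the counts of the pair in all 8 tumors, with 19.2, 29.4 and 50.5 CPM at the lowest, median and highest. Rps27 had 0.772, 1.36 and 1.78 CPM and shares its coding sequence with Rps27rt, so its level is uncertain. Rpl22l1, a paralog of Rpl22 outside the symbol rule, took 15.5% to 32.9% of the counts of that pair, lowest in 2L and highest in 4b. Rpl10l had 0 counts beside 873 counts of Rpl10, which allows a share of the pair of up to 1.72% in 4a and up to 20.6% in library 3. Rps4x, the X-linked small subunit gene, had 37.3, 54.2 and 106 CPM at the lowest, median and highest.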

How the data were processed

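Raw counts per gene for 8 tumors were deposited as whole numbers by the authors. The submitters' processing notes name STAR 2.7.5a, RSEM, featureCounts and cutadapt, and the build mm10, in no order; tool settings, the counting of multi-mapping reads and the strand setting are not given in the sources used here. Gene names, exon lengths and coding sequences came from GENCODE M21, which named 99.3% of the 49671 identifiers, and gene starts from RefSeq. Members, lists and tests were chosen with earlier results of these data known.

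Genes were filtered with filterByExpr of edgeR 4.0.16 (minimum count 10, a design of 1 group), and 11505 were kept. CPM used TMM factors, and log2 CPM a prior count of 2. The 6 title numbers were compared over all genes with edgeR's quasi-likelihood F-test (R 4.3.3, Benjamini-Hochberg threshold 0.05), checked on simulated counts; DESeq2 1.42.0 was an alternative. Pairs with the same number were compared as ratios among genes averaging 5 CPM or more. Words of 50 bases were compared over all GENCODE transcripts on both strands. Intervals cover counting error only.

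Members named in the text were the 5 highest and 5 lowest per kilobase, the 6 most and 4 least variable, those called, the 3 highest and 3 lowest ratios of each pair, the paralogs, a fixed set of known roles and those that did not pass. Other members were named after their values were seen. Some members that these choices name are not reported here.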

Additional observations from a re-analysis of the deposited data

Results flagged for a closer look

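Of 46 values examined over the 8 tumors (named members and 3 summaries), 7 had a highest tumor far from the others by Dixon's 95% criterion. Chance passes about 1 in 20 groups, but that rate cannot be applied here, because some of the members were named for their large spread and 6 of the 7 values lie in library 3. In library 3 these were, on the log2 CPM scale, Rps2 at 8.42 (others 5.22 to 6.19), Rpl10a at 6.15 (2.35 to 3.95), Rpl12 at 5.85 (2.34 to 3.86), Rpl28 at 3.63 (-0.25 to 1.56), Rpl36 at 3.02 (-0.72 to 0.94) and Rps6 at 2.82 (0.04 to 1.35). Rpl28, Rpl36 and Rps6 did not pass the filter, and rest on 23, 15 and 13 counts in library 3. All these values use TMM scaling, with a factor of 0.394 in library 3, and the flags are not given for other scalings. In tumor 5, Rpl39l stood at 5.97 (others -2.86 to -0.73).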

How the results depend on the processing

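No paired analysis was possible because all 8 tumors form 1 group, and no groups share replicate numbers. Among the title numbers, 0 members and 0 genes were called by edgeR. DESeq2 called 5 members and 2383 genes (0 members and 1186 genes without library 3), library totals as the only scaling 7 and 3791, and no filter on low counts 11 and 6260. Leaving out 1 library gave 0 to 17 members and 0 to 4548 genes; the cause was not tested. With library totals as the only scaling, the members' median log2 ratio of 2L over 2R was 0.059 in place of -0.67 and 0 members were 2-fold apart, with that of all genes at 0.70. Among 1050 alternative values, 12 of the main results and 53 of single genes and other medians moved, 1 turned, and the rest stayed close or are those named next. The adjusted p of single members fell under the threshold 38 times, by DESeq2, with no filter, with library totals or without 2L or 2R. Depth limits library 3 most, where 3 counts equal 1.60 CPM.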
